A study of Mus musculus with 10 samples.

Results

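The 35 genes described here are a group of transcripts known to be induced by type I interferon: sensors of viral RNA and DNA, the transcription factors that carry the interferon signal, and antiviral effectors. They were chosen as a named list, without a threshold on these data but with earlier results of these data known. All 35 were found by symbol among the 15341 genes of a count table from mouse hearts. Ddx58 stands for the gene now called Rigi. RNA sequencing was done on heart tissue of 10 male mice, 5 per group. The controls were Sphk1f/-:Sphk2f/-:Mx1Cre- and the S1Pless animals Sphk1f/-:Sphk2f/-:Mx1Cre+. All 10 animals therefore carried a floxed and a null allele of each sphingosine kinase gene, and the groups differed in the Mx1-Cre transgene. S1Pless refers to plasma without sphingosine 1-phosphate (S1P), the lipid messenger that these kinases make, and the study set the hearts of such animals against those of littermates. Mx1-Cre is driven by the promoter of a member of the list and is active in blood-forming cells and in other cells that respond to interferon. The labels give no age, no strain and no agent used to activate the Cre.

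Type I interferons are secreted proteins that nearly every cell can make when its sensors detect foreign or misplaced nucleic acid. They bind the receptor formed by Ifnar1 and Ifnar2, whose kinases Jak1 and Tyk2 phosphorylate STAT proteins, among them STAT2, which enters the complex ISGF3 together with IRF9. ISGF3 binds the interferon-stimulated response element (ISRE) before its target genes, and among the targets are Stat2, Irf9 and the sensors themselves, so the genes of the pathway are also its products. A low level of this transcription is present in tissues without infection.

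Since ISGF3 acts through the ISRE, the promoters of the 35 genes were searched for it. RefSeq promoters of the build GRCm38.p6, matched by symbol, were found for 24 of the 35 genes, and the 250 bases before each gene's start were searched on both strands for the ISRE core (GAAA, 2 bases of any kind, GAAA) and for the GAS core (TTC, 3 bases of any kind, GAA), an element of the response to interferon gamma. The ISRE core occurred in 10 of the 24 genes (41.7%), against 3.46% of all 27025 genes in the promoter table. Since the list was chosen as genes induced by type I interferon, this share describes the list and is not a result about these hearts. The GAS core occurred in 4 of 24 (16.7%), against 8.13% of all genes. Overlapping matches were counted separately. Of the 7 genes with a promoter entry that were higher in S1Pless hearts by the test below, 4 held the ISRE core, and their promoters are shown here with the match in capitals, 5′ to 3′ and ending at the base before the gene's start.
Rsad2: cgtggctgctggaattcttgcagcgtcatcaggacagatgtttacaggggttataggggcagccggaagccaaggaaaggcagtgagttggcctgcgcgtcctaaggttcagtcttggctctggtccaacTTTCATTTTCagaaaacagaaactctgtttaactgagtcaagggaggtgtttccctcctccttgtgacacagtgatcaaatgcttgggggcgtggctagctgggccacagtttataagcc
Stat2: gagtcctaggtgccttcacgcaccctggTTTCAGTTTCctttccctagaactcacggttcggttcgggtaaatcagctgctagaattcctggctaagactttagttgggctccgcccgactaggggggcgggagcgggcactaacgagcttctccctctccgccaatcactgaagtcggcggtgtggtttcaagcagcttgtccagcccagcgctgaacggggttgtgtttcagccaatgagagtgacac
Trim30a: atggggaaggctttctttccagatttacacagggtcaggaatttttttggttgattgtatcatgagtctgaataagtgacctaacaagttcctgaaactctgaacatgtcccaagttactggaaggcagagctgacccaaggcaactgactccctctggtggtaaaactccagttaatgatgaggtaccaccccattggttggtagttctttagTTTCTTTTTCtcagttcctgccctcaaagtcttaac
Oas3: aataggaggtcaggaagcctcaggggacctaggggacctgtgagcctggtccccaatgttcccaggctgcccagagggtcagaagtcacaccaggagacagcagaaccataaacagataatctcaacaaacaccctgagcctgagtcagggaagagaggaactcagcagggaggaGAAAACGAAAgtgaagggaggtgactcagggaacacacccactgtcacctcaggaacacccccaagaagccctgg
The Rsad2 stretch lies at chr12:26456453-26456702 on the minus strand, that of Stat2 at chr10:128270248-128270497 on the plus strand, that of Trim30a at chr7:104465194-104465443 on the minus strand and that of Oas3 at chr5:120777660-120777909 on the minus strand. Oas3 carries the element in the orientation of the gene and the other 3 carry it on the opposite strand. Trim30a has 2 starts in the table, and 1 of them is shown. The match begins at base -120 in Rsad2, -222 in Stat2, -36 in Trim30a and -75 in Oas3. Among the genes that were not called, Isg15 held 3 overlapping matches between bases -78 and -57, and Ifit1, Ifit3, Ifit3b, Oas1a and Bst2 held 2 each. Over all 10138 tested genes with a promoter entry, the 329 with an ISRE core match held 25 that were higher (7.60%), against 3.29% of all 10138. The 329 include the 10 members with a match, 4 of them among the 25, so this share is not separate from the list. The 719 with a GAS match held 24 that were higher (3.34%). A match describes the letters of this window and is not a measured binding site.

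**Figure D1:**
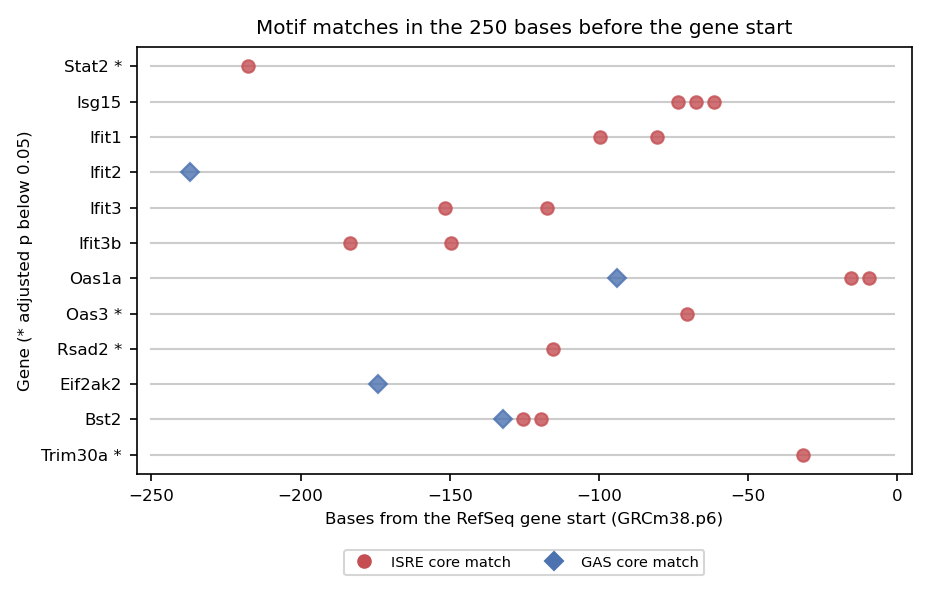
Positions of the ISRE core (circles) and the GAS core (diamonds) in the 250 bases before the RefSeq start of the 12 genes with a match, as bases from the start. Isg15 has 3 overlapping ISRE matches, and of the 4 genes with an asterisk, called higher in S1Pless hearts, Trim30a has the match nearest to its start, from base -36.

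All 35 genes had a fold change above 1 in S1Pless hearts, although Usp18, Ifi27l2a, Ifi35 and Ifit3b were below 1 in some refits with hearts left out, and 11 of the 35 rose past the threshold. These were Ddx58, Zbp1, Stat2, Oas2, Oas3, Oasl2, Mx1, Rsad2, Parp14, Xaf1 and Trim30a (quasi-likelihood test of edgeR, adjusted p below 0.05 after Benjamini-Hochberg correction over 12992 genes). Of all genes tested, 3.4% were higher and 0.316% lower at that threshold. None of the 35 was lower, none had a lower level at an unadjusted p below 0.05, and DESeq2 called none lower either. The median member was 1.54-fold higher (a log2 fold change of 0.62, against -0.01 for all genes tested), with a range from 1.03-fold in Ifi27l2a to 3.29-fold in Mx1. At an unadjusted p below 0.05 stood 28 of the 35, against 19.9% of all genes. The 5 S1Pless hearts all lay above the 5 controls in 11 members, while this held in 4.53% of all genes tested. The list was chosen with earlier results of these data known, so these shares describe it and no test over the list was made. In whole tissue, more cells of a type and more RNA per cell cannot be told apart.

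**Figure D2:**
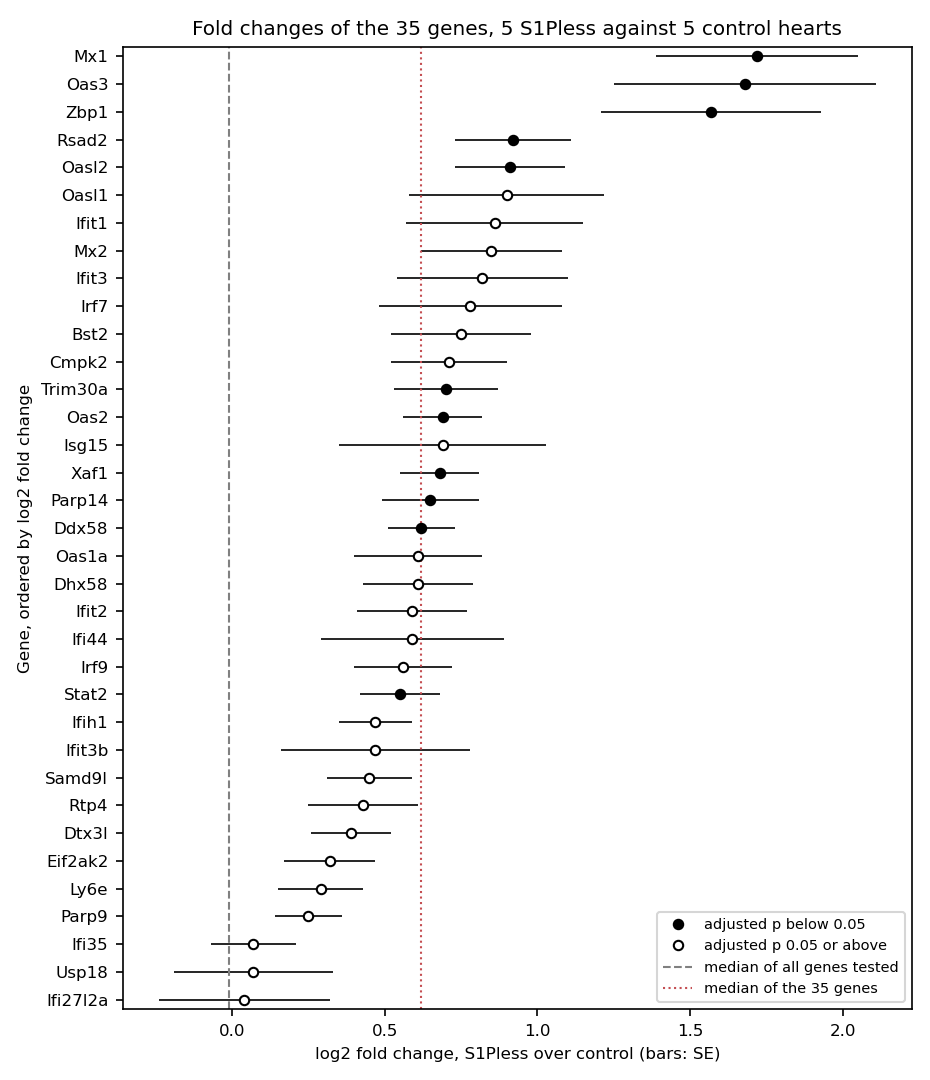
Log2 fold change of each of the 35 genes, 5 S1Pless over 5 control hearts, with bars of 1 SE; filled points have an adjusted p below 0.05. All points lie above 0, from 0.04 in Ifi27l2a to 1.72 in Mx1; the dashed line is the median of all genes tested (-0.01) and the dotted line that of the 35 genes (0.62).

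The rise was uneven between S1Pless hearts. Relative to the control median of each gene, the median member stood at a log2 value of 1.05 in S1Pless replicate 1 and 0.83 in replicate 5, but at 0.43, 0.21 and 0.25 in replicates 2, 3 and 4. Controls 1 to 5 stood at 0.17, -0.28, 0.00, -0.13 and 0.04. S1Pless replicate 1 had the highest level of all 10 hearts in 27 members and replicate 5 in 6. The exceptions were Ifi27l2a, which control replicate 1 led by less than the rounding of 11.8 CPM, and Usp18, highest in control replicate 5. Replicates 1 and 5 were the top 2 of the S1Pless hearts in 33 of 35 members. The lowest heart was control replicate 2 in 19 members and control replicate 4 in 10. S1Pless replicate 3 lay above all controls in 12 members and below the control median in 12.

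**Figure D3:**
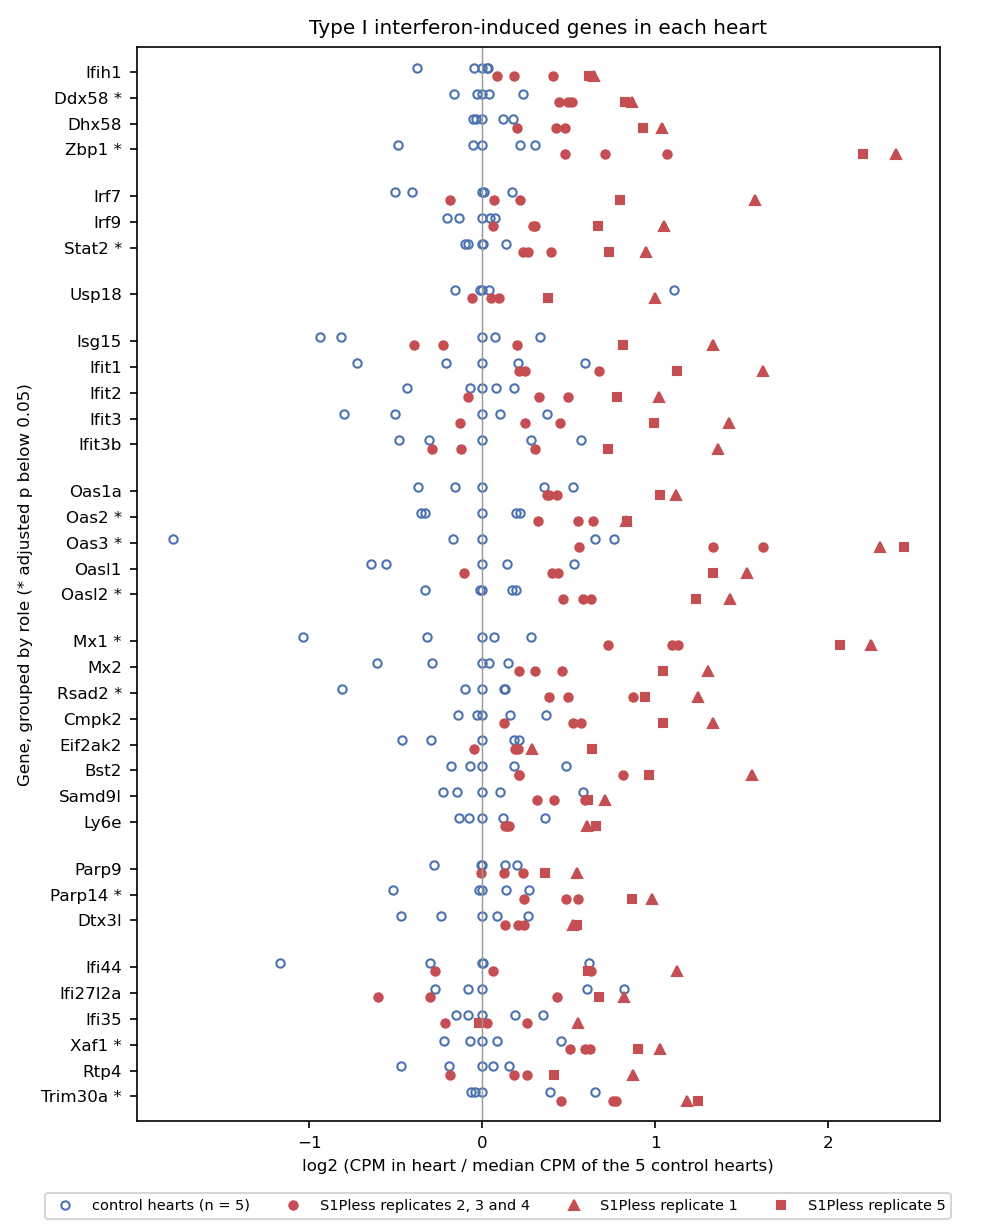
Level of each gene in each heart as log2 of its CPM over the median CPM of the 5 controls, grouped by role. Open circles are controls, filled symbols S1Pless hearts, and asterisks mark an adjusted p below 0.05; the triangle and the square, S1Pless replicates 1 and 5, lie farthest right in most rows.

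The number of members called moved with single hearts. With a control left out, replicates 1 to 5 in order, it was 11, 6, 4, 1 and 7. With an S1Pless heart left out, in the same order, it was 6, 13, 15, 14 and 6. The count over all genes moved as well: 504, 261, 118, 122 and 223 genes were higher without controls 1 to 5 and 269, 493, 428, 459 and 221 without S1Pless replicates 1 to 5, against 442 with all hearts. In the fit without control replicate 4 this was 0.931% of all genes tested. The gene called without control replicate 4 was Ddx58, the member called in every one of the 10 fits with a heart left out. Without S1Pless replicates 1 and 5 together, an alternative chosen after seeing the data, edgeR called 0 members, 15 had an unadjusted p below 0.05, and the median log2 fold change was 0.30, with 31 of 35 above 0. Of all genes, 41 were higher (0.313%) and 4 lower in that fit. The share of all genes at an unadjusted p below 0.05 in that fit is not given here.

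**Figure D4:**
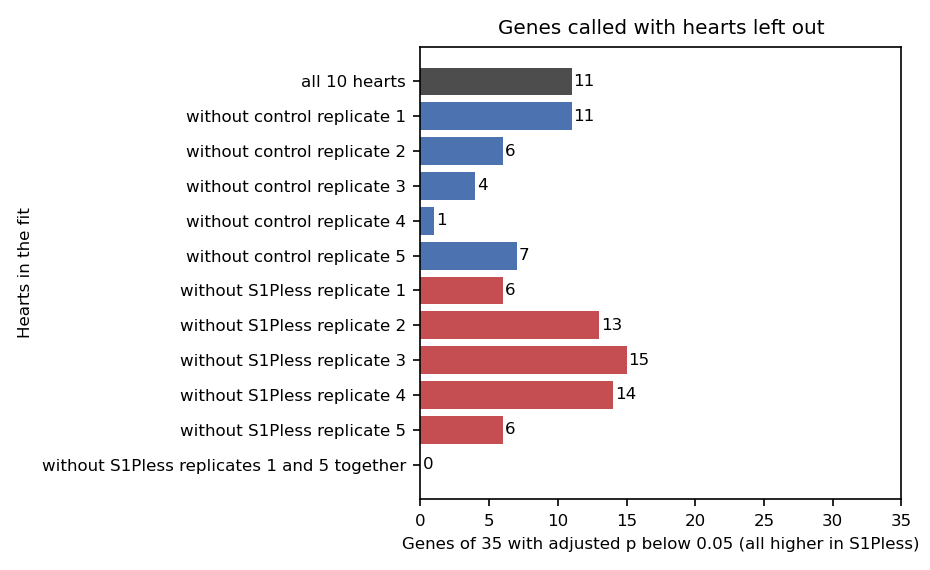
Number of the 35 genes called higher with all 10 hearts, without each heart in turn, and without S1Pless replicates 1 and 5 together. The count is 11 with all hearts, lowest without control replicate 4 (1) among single hearts, and 0 without both S1Pless replicates.

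Markers of macrophages and monocytes moved with the group as well. Of 20 markers 19 were tested, 8 were higher and 0 lower, with a median of 1.84-fold, and no marker was at 0 in any heart. Over all genes tested, 3.4% were higher. Their summed level was 387 to 501 CPM in controls and 608 to 1460 CPM in S1Pless hearts, with no overlap. By this sum the order of hearts differed from that of the median member. S1Pless replicate 5 had by far the most (1460 CPM). Replicate 3, lowest of the S1Pless hearts for the median member, had 750 CPM, and replicate 1, the highest, had 719 CPM. Lyz2 was the largest part of the sum, with 541, 248 and 209 CPM in S1Pless replicates 5, 3 and 1. Single markers differed in order. S1Pless replicates 5 and 1 were highest in C1qa (140 and 83.7 CPM) and Ccr2 (34.7 and 20.4 CPM). S1Pless replicate 3 lay above replicate 1 in Csf1r (71.5 and 60.8 CPM) and Mrc1 (52.1 and 45.9 CPM). Of the 6 tested markers of conventional dendritic cells 2 were higher (Itgax, 2.97-fold, and Clec9a, 2.84-fold), with summed levels of 38.6 to 49.6 CPM in controls and 52.4 to 65.1 CPM in S1Pless hearts. Of the 8 listed markers of plasmacytoid dendritic cells, the main producers of type I interferon, 4 were tested. Irf8 was higher, a gene that macrophages also express. Tcf4 stood at 1.21-fold, Runx2 at 1.40-fold and Cox6a2 at 0.821-fold, none of them called (edgeR adjusted p from 0.168 to 0.377). The list's summed level, 1130 to 1710 CPM in controls and 953 to 1450 CPM in S1Pless hearts, was mostly that of Cox6a2, which heart muscle also expresses. Spib, a defining factor, had too few reads to be tested (0 to 13). It was at 0 in some S1Pless hearts and highest in S1Pless replicate 1 (0.587 CPM, against 0.0658 to 0.168 CPM in controls). Of 4 tested B cell markers Ighd was lower, and of 10 endothelial markers Erg was higher. Only 4 of 8 listed neutrophil markers and 2 of 10 T or NK cell markers were tested, and none was called. The tested T cell markers Cd4 and Cd3e stood at 1.98-fold and 1.75-fold (edgeR adjusted p = 0.0860 and 0.355). None of 5 erythroid or 8 fibroblast markers was called. The fibroblast median was 1.10-fold, and only in Col1a2 did all S1Pless hearts lie above all controls (1.46-fold, edgeR adjusted p = 0.0761). The part of any cell type in the levels of the 35 genes was not tested.

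**Figure D5:**
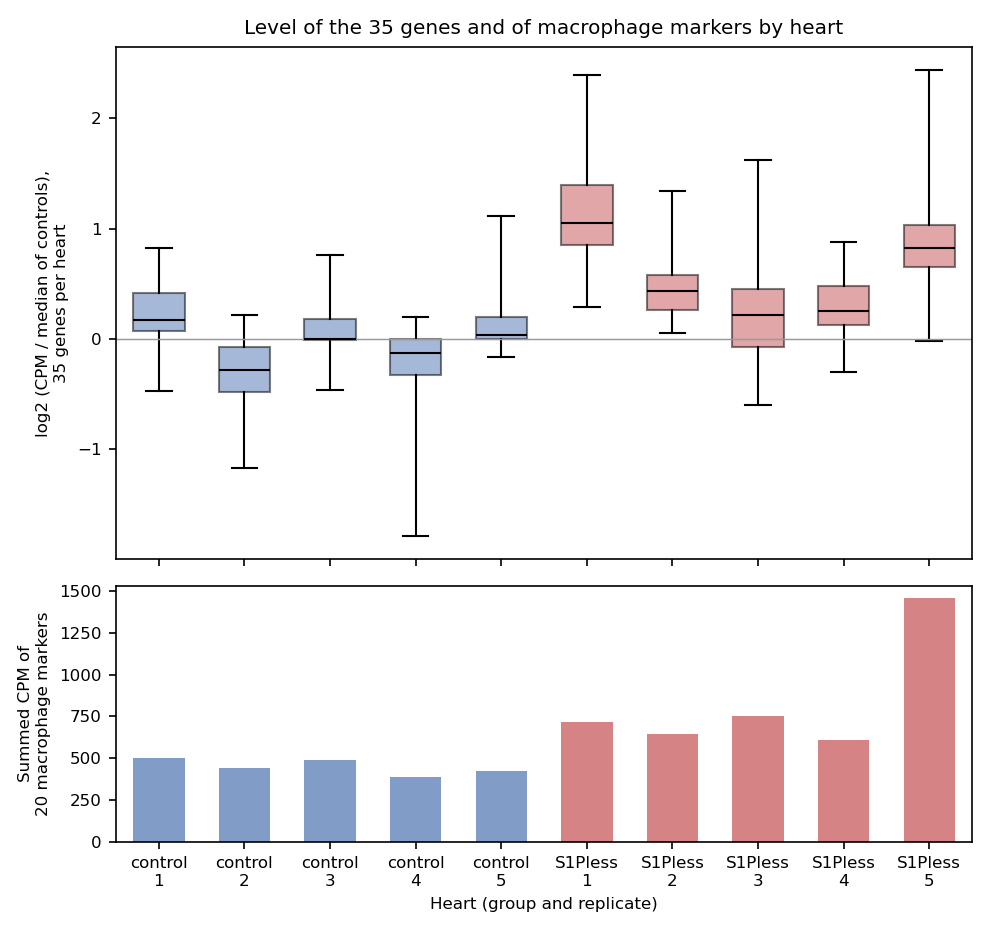
Top, the 35 genes in each heart as log2 of CPM over the control median (box, quartiles; line, median; whiskers, full range); bottom, summed CPM of 20 macrophage markers. The median member is highest in S1Pless replicate 1 (1.05) and the macrophage sum in S1Pless replicate 5 (1460 CPM).

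All 4 sensors of nucleic acid had their S1Pless hearts above all controls, and 2 of them were called. Levels are in CPM, the counts of a gene scaled to the library total with TMM factors, listed by replicate 1 to 5. Ddx58 (ENSMUSG00000040296), which encodes the viral RNA sensor RIG-I, had 22.2, 16.8, 18.5, 18.8 and 19.3 CPM in controls and 34.4, 27.0, 25.7, 26.6 and 33.5 CPM in S1Pless hearts. It rose 1.54-fold (log2 fold change 0.62 ± 0.11, SE; edgeR adjusted p = 0.0119). Zbp1 (ENSMUSG00000027514), a sensor of left-handed nucleic acid that can start cell death, had 2.10, 1.29, 1.81, 1.74 and 2.23 CPM in controls and 9.52, 3.8, 2.96, 2.52 and 8.34 CPM in S1Pless hearts. Its rise of 2.98-fold (1.57 ± 0.36, adjusted p = 0.0304) held in all 5 hearts, with replicates 1 and 5 far above the other 3. Leaving out any of controls 2 to 5, or S1Pless replicate 1 or 5, ended the call of Zbp1 (adjusted p up to 0.0832), and limma-voom did not make it. Ifih1, the RNA sensor MDA5, had 15.3, 11.6, 15, 14.5 and 15.4 CPM in controls and 23.5, 19.9, 15.9, 17.1 and 23 CPM in S1Pless hearts. Its fold of 1.39 did not pass (adjusted p = 0.0519), nor did the 1.52-fold of Dhx58, the regulator LGP2 of these sensors (adjusted p = 0.0720).

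Of the 3 transcription factors, Stat2 was called. Stat2 (ENSMUSG00000040033), the subunit of ISGF3 that activates transcription, had 23.5, 21.9, 22.1, 23.5 and 25.8 CPM in controls and 45.2, 30.9, 27.6, 28.2 and 39.1 CPM in S1Pless hearts. The groups did not overlap and it rose 1.47-fold (log2 fold change 0.55 ± 0.13, edgeR adjusted p = 0.0332), but it passed in only 3 of 10 fits with a heart left out, those without S1Pless replicate 2, 3 or 4 (adjusted p up to 0.0873). Irf9, the DNA-binding subunit of ISGF3, had a 1.48-fold higher level with an adjusted p of 0.0675. Irf7, which amplifies interferon production, had 7.63 to 12.2 CPM in controls and 9.52 to 32.3 CPM in S1Pless hearts (1.71-fold, adjusted p = 0.176), and only S1Pless replicates 1, 2 and 5 lay above all controls. Usp18, the protease that removes ISG15 from proteins and dampens receptor signalling, had 6.97, 6.77, 6.07, 6.70 and 14.6 CPM in controls and 13.5, 7.00, 6.50, 7.26 and 8.82 CPM in S1Pless hearts. Control replicate 5 was the highest heart of all, and the groups overlapped (1.05-fold, edgeR adjusted p = 0.910). Without control replicate 5 the Usp18 log2 fold change was 0.38, with an adjusted p of 0.332.

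None of the 5 genes of ISG15 and the IFIT family was called, and the groups overlapped in each. Of their unadjusted p-values 3 lay below 0.05, those of Ifit1, Ifit2 and Ifit3. IFIT proteins bind viral RNA and stop its translation. Ifit2 (ENSMUSG00000045932) had 19.5, 14.4, 18.5, 20.6 and 22.1 CPM in controls and 39.5, 27.5, 18.4, 24.4 and 33.4 CPM in S1Pless hearts. All S1Pless hearts but replicate 3 lay above the controls (1.51-fold, edgeR adjusted p = 0.0831). Ifit1 (ENSMUSG00000034459) had 7.24, 2.90, 4.79, 4.14 and 5.53 CPM against 14.8, 7.66, 5.69, 5.54 and 10.5 CPM (1.81-fold, adjusted p = 0.116). Isg15, a ubiquitin-like protein that is joined to other proteins, spread from 1.63 to 3.94 CPM in controls and from 2.38 to 7.90 CPM in S1Pless hearts (1.62-fold, adjusted p = 0.277). Ifit3 and Ifit3b are near-identical copies whose reads the counting could split, and they had 1.77-fold and 1.39-fold higher levels (adjusted p = 0.126 and 0.417). With their counts summed the adjusted p was 0.180.

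The OAS family was the group with the largest median change, 1.86-fold, and 3 of its 5 members were called. OAS enzymes make the short adenylate chains that activate RNase L, and the Oasl genes encode OAS-like proteins. Oas2 (ENSMUSG00000032690) had 37.0, 37.7, 25.7, 25.3 and 32.3 CPM in controls and 57.7, 40.5, 50.5, 47.5 and 57.9 CPM in S1Pless hearts. Every S1Pless heart was above every control (1.61-fold, log2 fold change 0.69 ± 0.13, edgeR adjusted p = 0.0192). Oasl2 (ENSMUSG00000029561), one of the OAS-like genes, had 15.3, 10.8, 15.5, 13.5 and 13.6 CPM in controls and 36.6, 21, 20.3, 18.7 and 32.0 CPM in S1Pless hearts, again without overlap (1.88-fold, adjusted p = 0.0199). Oas3 (ENSMUSG00000032661) was the least abundant member, with 2 to 43 reads per library. It had 0.592, 0.376, 0.639, 0.109 and 0.335 CPM in controls and 1.85, 0.951, 1.16, 0.554 and 2.04 CPM in S1Pless hearts (3.21-fold, 1.68 ± 0.43, adjusted p = 0.0446). S1Pless replicate 4 lay within the control range. Oas2 lost its call without control replicate 3 or 4 and Oasl2 without control replicate 4 (adjusted p up to 0.0544). Oas3 lost it in 7 of 10 fits, those lacking S1Pless replicate 1, 3 or 5 or any of controls 2 to 5 (up to 0.116). Oas1a had a 1.53-fold and Oasl1 a 1.86-fold higher level (adjusted p = 0.119 and 0.143).

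Among the 8 other antiviral effectors Mx1 and Rsad2 were called. Mx1 (ENSMUSG00000000386) is known as a GTPase that can block influenza viruses. Its function in these mice, whose strain is not given, was not tested. Mx1 had 1.05, 0.806, 1.22, 0.490 and 1.01 CPM in controls and 4.78, 2.15, 2.21, 1.66 and 4.22 CPM in S1Pless hearts. It showed the largest fold change of the list (3.29-fold, log2 fold change 1.72 ± 0.33, edgeR adjusted p = 0.0180), from 9 to 106 reads per library and with no overlap of the groups. The S1Pless animals alone carry a transgene with the Mx1 promoter, and whether its transcripts add to the Mx1 counts was not tested. Its relative Mx2 had a 1.81-fold higher level (adjusted p = 0.0597), with every S1Pless heart above every control. Rsad2 (ENSMUSG00000020641), which encodes viperin, an enzyme that makes a chain-terminating nucleotide, had 36.4, 19, 36.5, 33.3 and 31.2 CPM in controls and 79.3, 47.0, 43.5, 61.1 and 64.0 CPM in S1Pless hearts. The groups did not overlap, control replicate 2 was the lowest heart, and the rise was 1.89-fold (adjusted p = 0.0203). Both calls were lost without control replicate 4 (adjusted p = 0.0508 for Mx1 and 0.0535 for Rsad2). Cmpk2, the neighbour of Rsad2 that supplies its nucleotide substrate, had a 1.63-fold higher level (adjusted p = 0.0595). Bst2, which tethers budding virus, stood at 1.68-fold, Samd9l at 1.36-fold, the RNA-activated kinase PKR (Eif2ak2) at 1.25-fold and Ly6e at 1.23-fold (adjusted p from 0.0934 to 0.254).

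Parp14 was called among the PARP and DTX3L genes, and Xaf1 and Trim30a among the remaining 6. Parp14 (ENSMUSG00000034422), an ADP-ribosyltransferase, had 46.3, 29.4, 41.6, 42.1 and 50.7 CPM in controls and 83.2, 61.9, 49.8, 58.9 and 76.8 CPM in S1Pless hearts (1.57-fold, edgeR adjusted p = 0.0347). S1Pless replicate 3 lay just under the highest control. Xaf1 (ENSMUSG00000040483), which opposes an inhibitor of apoptosis, had 25.9, 18, 16.2, 18.9 and 20.1 CPM in controls and 38.5, 26.9, 29.1, 28.6 and 35.4 CPM in S1Pless hearts, with no overlap (1.60-fold, adjusted p = 0.0187). Trim30a (ENSMUSG00000030921) had 22.5, 13.7, 13.9, 14.3 and 18.8 CPM in controls and 32.5, 24.5, 19.7, 24.2 and 34.0 CPM in S1Pless hearts (1.63-fold, adjusted p = 0.0373), and again S1Pless replicate 3 lay within the control range. Xaf1 lost its call without control replicate 3 or 4 (adjusted p up to 0.0538), Parp14 without any of controls 2 to 4, or either of S1Pless replicates 1 and 5 (up to 0.0892), and Trim30a without any of controls 2 to 5, or either of those S1Pless replicates (up to 0.104). Parp9 and Dtx3l, which form a complex and whose gene models overlap on opposite strands, stood at 1.19-fold and 1.31-fold (adjusted p = 0.247 and 0.121), and reads from the overlap may be counted for either, since the strand setting is not given in the sources used here. Ifi44 stood at 1.5-fold and Rtp4 at 1.35-fold (adjusted p = 0.293 and 0.193). Ifi27l2a and Ifi35 were at 1.03-fold and 1.05-fold, with standard errors of 0.28 and 0.14 on the log2 scale, and S1Pless replicate 3 was the lowest of all 10 hearts in both.

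The members differ widely in abundance. Per kilobase of exon (GENCODE M21 models), the most abundant in controls was Ly6e at 49.3 ± 7.0 CPM per kilobase (SD, n = 5). Ifi27l2a at 17.6 ± 5.9 and Bst2 at 16.7 ± 3.2 came next and did not differ from each other beyond their spread. The least abundant were Zbp1 at 0.520 ± 0.10, Mx1 at 0.242 ± 0.074 and Oas3 at 0.058 ± 0.030 CPM per kilobase, and these 3 had the largest fold changes. By chromosome, 6 members are on chromosome 16, 5 on chromosome 5 and 4, all of them Ifit genes, on chromosome 19. Dtx3l lies between Parp9 and Parp14, and next to each other lie Rsad2 and Cmpk2, Oas2 and Oas3, Oasl1 and Oasl2, and Ifit2 and Ifit3. Neighbours may not be independent of each other, which was not tested. Irf9 overlaps Rnf31 on the same strand, and Irf7 and Rtp4 overlap Phrf1 and Masp1 on the opposite strand, so their counts are uncertain in part.

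Of the other genes of the pathway, Ifnar1 had the smallest adjusted p. Ifnar1, the receptor chain that binds Tyk2, had 30.3, 30.8, 31.3, 32.4 and 33.1 CPM in controls and 44.6, 38.4, 37.4, 44.5 and 46.6 CPM in S1Pless hearts. The control hearts were close together and all S1Pless hearts lay above them (1.34-fold, log2 fold change 0.42 ± 0.08, edgeR adjusted p = 0.0180), and the call was kept whichever heart was left out (adjusted p up to 0.0494). It was not kept without S1Pless replicates 1 and 5 together or with a block for neighbouring title numbers (adjusted p up to 0.157). Ifnar2 stood at 1.25-fold, Tyk2 at 1.17-fold and Jak1 at 1.02-fold (adjusted p = 0.481, 0.211 and 0.919). Of the 12 upstream sensors and adaptors tested, Irf5, a factor that drives interferon and cytokine genes in macrophages, rose 1.95-fold (adjusted p = 0.0303). Of 7 inhibitors tested, Ptpn6, the phosphatase SHP-1 of blood cells, rose 2.07-fold and Samhd1, which depletes nucleotides, 1.37-fold (adjusted p = 0.0307 and 0.0375). Of 35 further interferon-induced genes, Sp100 (1.47-fold), Sp110 (1.62-fold), Lgals3bp (1.42-fold) and Slfn8 (1.71-fold) rose, with adjusted p-values from 0.0192 to 0.0459. Each of these 7 lost its call when control 3 or control 4 was left out, and all but Slfn8 also without control 5 or S1Pless replicate 5 (adjusted p up to 0.119). Irf5, Ptpn6, Samhd1, Sp110 and Lgals3bp lost it too without control 2 or S1Pless replicate 1, Samhd1 without control 1 or S1Pless replicate 3, and Lgals3bp without S1Pless replicate 2. limma-voom did not call Irf5 or Samhd1. In all, 8 of 59 tested pathway genes were higher and 0 lower, with a median of 1.39-fold. Of all genes tested, 3.4% were higher and 0.316% lower, and their median log2 fold change was -0.01. The 14 interferon genes of the pathway list, Myd88 and Trex1 were not analysed here.

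Genes of the interferon-gamma axis, many of which also answer to type I interferon, had a median of 1.59-fold. Of 13 tested, 4 were higher, against 3.4% of all genes tested. Ciita, the regulator of MHC class II genes, had 2.30 to 4.13 CPM in controls and 5.10 to 10.6 CPM in S1Pless hearts (2.51-fold, edgeR adjusted p = 0.00739) and passed in every fit with a heart left out and without S1Pless replicates 1 and 5 together (adjusted p up to 0.0471). Cxcl9, a chemokine for T cells, rose 2.29-fold, Irf8 1.80-fold and the receptor chain Ifngr1 1.34-fold (adjusted p = 0.0433, 0.0227 and 0.0280), and each lost its call when any of controls 2 to 4 or S1Pless replicate 5 was left out (up to 0.112). Ifngr1 and Cxcl9 lost it also without control 5 or S1Pless replicate 1, and Cxcl9 without control 1 or S1Pless replicate 2 and with limma-voom. Ifng was not analysed here. Irf1 stood at 1.43-fold without overlap of the groups (adjusted p = 0.0679). Cxcl10 did not pass the filter on low counts, with 0.00 to 0.391 CPM in controls and 0.353 to 3.48 CPM in S1Pless hearts, the highest again in replicate 1.

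Depth ranged from 17204491 to 20202283 counts per control library and from 16354071 to 20832566 per S1Pless library, and no difference was found (two-sided exact permutation p = 0.540). Of the 12 heart muscle markers none was called and all were present. Only 1 of them had a fold change above 1, and their median was 0.892-fold. Their summed level was 66900 to 76700 CPM in controls and 55600 to 69000 CPM in S1Pless hearts. Pln was lower in every S1Pless heart than in every control (0.811-fold, edgeR adjusted p = 0.0890). The targeted genes were not called: Sphk1 had 1.21 ± 0.36 and 0.723 ± 0.21 CPM and Sphk2 20.2 ± 2.3 and 16.8 ± 1.9 CPM in controls and S1Pless hearts (SD, n = 5 each; edgeR adjusted p = 0.168 and 0.180). The sample titles carry numbers of a series 38 (4 controls, 3 S1Pless) and a series 44 (1 control, 2 S1Pless), of unstated meaning. Within series 38 the median member was higher in S1Pless hearts by 0.64 on the log2 scale, with 34 of 35 above 0, and within series 44 by 0.46, with 33 of 35 above 0. With the series as a covariate 6 members were called, Ddx58, Oas2, Oasl2, Mx1, Rsad2 and Xaf1, and with a block for neighbouring title numbers 2, Ddx58 and Rsad2. Of all genes, 2.47% were higher with the covariate and 0.616% with the block. In the pairs of hearts with adjacent numbers, S1Pless replicate 2 exceeded control replicate 1 by a median of 0.16 and S1Pless replicate 3 exceeded control replicate 2 by 0.46, each in 32 of 35 members. Library numbers were given to the controls first, so the order of the libraries and the group cannot be told apart.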

How the data were processed

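RNA from hearts of 10 male mice (5 control, 5 S1Pless) was sequenced after TRIzol and RNeasy isolation and a stranded mRNA library kit, per the labels' protocols. The authors deposited raw read counts per Ensembl gene in 1 table. STAR 2.7.8a, featureCounts 2.0.1 and GRCm39 come from the submitters' processing notes. Annotation, strand setting and multi-mapping rule are not given in the sources used. Groups follow the genotype labels, and replicates are numbered in accession order. The labels name each heart as a separate sample, and in each of 20 replicate pairs the counts differed beyond sampling noise (chi-square over its degrees of freedom at least 10.1). P-values judge the difference between the groups against the spread between these samples.

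Symbols came from GENCODE M21 (15321 of 15341 identifiers matched). Counts were tested with edgeR 4.0.16 in R 4.3.3: filterByExpr (minimum count 10), TMM, robust glmQLFit, glmQLFTest, two-sided, Benjamini-Hochberg over 12992 genes, threshold 0.05. The 35 genes passed this filter. The standard error is the log2 fold change divided by the root of F. The fit was tested on simulated counts. A count was worth 0.0451 to 0.0658 CPM. Alternatives were RLE and upper-quartile factors, library totals, DESeq2 1.42.0, limma-voom (limma 3.58.1), 2 other filters, covariates for title numbers, summed Ifit3 copies and hearts left out. The genes and lists were chosen with earlier results of these data known. Every called member, Mx1, the smallest p-values of roles without a call and hearts standing apart are given per heart; pathway genes are named if called or part of the receptor and its kinases; 1 gene of the pathway list is not reported here. Protein sequences were not used here.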

Additional observations from a re-analysis of the deposited data

Results flagged for a closer look

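In 3 members a heart stood apart from the other 4 of its group by Dixon's test on log2 CPM, among 70 gene and group combinations; chance gives such a result in about 1 in 20. Usp18 was at 14.6 CPM in control replicate 5, against 6.07 to 6.97 CPM in the other controls. Rsad2 was at 19 CPM in control replicate 2, against 31.2 to 36.5 CPM. Ifih1 was at 11.6 CPM in control replicate 2, against 14.5 to 15.4 CPM. Control replicate 2 was also the lowest of all hearts in 19 of the 35 genes, and these genes share their libraries.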

How the results depend on the processing

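No called gene changed sign under any alternative. With library totals alone 24 members and 32 pathway genes were called (1420 of all genes higher, 10.9%, median log2 fold change of all genes 0.12), and with DESeq2 18 and 22 (753 of all genes higher, 5.02%). With the title series as a covariate 6 and 4 were called (321 of all genes higher), and with the block for neighbouring title numbers 2 and 0 (80 of all genes higher; 24 pathway genes at an unadjusted p below 0.05 in edgeR). In the block fit control replicates 3 and 4 had no S1Pless heart in their block and did not bear on the group difference. Without S1Pless replicates 1 and 5 together, edgeR called 0 and 0 (15 and 18 at an unadjusted p below 0.05). The share of all genes at that unadjusted p in these refits is not given here, so these counts have no background beside them. Leaving out 1 heart gave 1 to 15 members and 1 to 13 pathway genes called, with 118 to 504 of all genes higher. It gave 11 to 18 members without overlap, 17 without S1Pless replicate 3 (5.86% of all genes) and 18 without control replicate 1 (6.98%). With fewer hearts, more genes can be without overlap. The median log2 fold change of the members ranged from 0.48 to 0.72 in those fits. RLE and upper-quartile factors, limma-voom, both filters and summed Ifit3 copies left 10 or 11 members called. The cause of these changes was not tested.

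Members that were not called changed sign in 14 combinations of gene and refit. The Usp18 log2 fold change was -0.18 with the title number block, -0.02 without control replicate 3, -0.15 without S1Pless replicate 1 and -0.26 without S1Pless replicates 1 and 5; with 1 heart left out it ran from -0.15 to 0.38. Ifi27l2a was at -0.10 with the block, -0.03, -0.07 and -0.02 without control replicates 2, 4 and 5, -0.12 and -0.08 without S1Pless replicates 1 and 5, and -0.37 without both; with 1 heart left out it ran from -0.12 to 0.20. Ifi35 was at -0.05 without S1Pless replicate 1 (from there to 0.16 with 1 heart left out) and -0.04 without both, and Ifit3b at -0.08 without both. No paired analysis was possible because the labels give no replicate numbers that the groups share; the block above rests on neighbouring title numbers, whose meaning is not stated. Depth limits Oas3, with 2 to 43 reads, and Mx1, with 9 to 106.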
